A study of Mus musculus with 6 samples.

Results

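Of the 2043 ZBTB43 ChIP–seq peaks called with 491K prospermatogonia against input, 274 had no peak at the same place when IgG was the control, yet were seen again with 100K cells. These 274 regions, called input-only recurring peaks here, were selected on the peak calls by 3 criteria. Each was an input-controlled 491K peak, it overlapped no IgG-controlled 491K peak, and it overlapped by at least 1 bp an input-controlled 100K peak. ChIP–seq sequences DNA recovered with an antibody, and a peak is a stretch where fragments pile up above a control library. The input control is chromatin taken before the antibody step, whereas the IgG control is DNA recovered with an antibody of no chosen target.

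The series held 6 libraries, 1 for each of 6 groups: ZBTB43 from 491K and from 100K cells, IgG from 415K and from 100K cells, and input for the 491K and 100K preparations. All groups were wild-type male germ cells at 15.5 dpc from fetuses sired by OG2 males, B6;CBA-Tg(Pou5f1-EGFP)2Mnn/J, which carry EGFP under Pou5f1 (Oct4) control. The mothers are given as C57BL/6J in one part of the methods and as C57BL/6J or OG2 in another. EGFP-positive cells were sorted from the testes of several fetuses, and the methods state that the larger preparation combined batches of frozen cells. The study counts the 491K and 100K preparations as biological duplicates, but they differ in cell number and peaks were called in each alone. With 1 library at each cell number, every p-value below compares regions of 1 peak list and not conditions. The lists held peaks only, so the germ cell label could not be checked against marker genes, and the number of reads behind a peak is unknown here. The ZBTB43 peaks numbered 2043 with 491K cells against input, 897 with 491K cells against IgG, 630 with 100K cells against input and 18 with 100K cells against IgG. The study tabulates the 897 as its ZBTB43 peaks, and no member overlaps any of them. Its text states fewer input-controlled peaks than the 2043 listed, and the reason is not known here.

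Prospermatogonia are fetal male germ cells that stop dividing and rebuild the DNA methylation pattern of the male germ line. ZBTB43 belongs to the BTB zinc finger proteins, which bind DNA through their zinc fingers. Purine–pyrimidine repeats (PPRs), in which a purine and a pyrimidine take turns along a strand, can leave the common right-handed helix and form left-handed Z-DNA. Runs of CA, read as TG on the other strand, are the most common PPRs of mammalian genomes, and CACG and CG runs are PPRs that carry CpG sites.

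Sequences of 11 regions show what the members looked like. They were taken from the GRCm38 (mm10) assembly, read 5′ to 3′ on the plus strand over the whole 491K peak. The first 5 are high-scoring members, the Apbb2 region is rich in CACG units, the Ndufa4 region is among the lowest-scoring members, and the last 4 have no alternating tract. Capitals mark the longest purine–pyrimidine alternation, except near Cldn34c4 and Tro, where they mark the longest run of purines or of pyrimidines. Nothing is marked in the Rbpj and Gm24407 sequences, whose longest alternations were 15 bp and 6 bp.
near Fpr-rs6: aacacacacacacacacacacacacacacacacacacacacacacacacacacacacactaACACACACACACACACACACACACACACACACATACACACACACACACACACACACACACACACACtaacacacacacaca
Wwox intron: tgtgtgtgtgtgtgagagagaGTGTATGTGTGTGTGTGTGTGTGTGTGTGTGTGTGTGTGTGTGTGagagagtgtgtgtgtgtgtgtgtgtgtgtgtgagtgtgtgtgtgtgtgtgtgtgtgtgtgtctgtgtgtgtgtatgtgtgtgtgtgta
Gm36235 start: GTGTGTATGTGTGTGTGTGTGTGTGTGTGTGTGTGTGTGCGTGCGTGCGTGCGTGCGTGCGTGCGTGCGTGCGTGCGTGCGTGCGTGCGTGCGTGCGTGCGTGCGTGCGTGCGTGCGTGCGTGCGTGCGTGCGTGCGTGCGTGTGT
near Gria1: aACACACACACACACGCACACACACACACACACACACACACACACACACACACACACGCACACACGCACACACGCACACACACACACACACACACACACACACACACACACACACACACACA
Lrp1b intron: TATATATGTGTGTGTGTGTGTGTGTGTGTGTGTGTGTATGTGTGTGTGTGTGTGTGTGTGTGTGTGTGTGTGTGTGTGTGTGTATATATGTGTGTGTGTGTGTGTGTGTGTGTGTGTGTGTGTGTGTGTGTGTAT
Apbb2 intron: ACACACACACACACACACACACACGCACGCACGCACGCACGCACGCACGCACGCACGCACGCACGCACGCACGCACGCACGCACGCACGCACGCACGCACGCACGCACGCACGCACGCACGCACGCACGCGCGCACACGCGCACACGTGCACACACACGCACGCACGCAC
near Ndufa4: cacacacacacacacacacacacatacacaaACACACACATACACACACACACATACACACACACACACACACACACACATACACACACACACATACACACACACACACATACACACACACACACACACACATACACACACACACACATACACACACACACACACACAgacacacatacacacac
Rbpj intron: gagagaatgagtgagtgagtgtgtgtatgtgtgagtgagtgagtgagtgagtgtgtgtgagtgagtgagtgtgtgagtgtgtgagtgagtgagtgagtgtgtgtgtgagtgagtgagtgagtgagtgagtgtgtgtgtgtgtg
near Cldn34c4: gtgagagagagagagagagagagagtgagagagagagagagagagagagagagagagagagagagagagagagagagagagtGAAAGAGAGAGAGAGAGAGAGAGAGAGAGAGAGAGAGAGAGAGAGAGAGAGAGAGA
near Tro: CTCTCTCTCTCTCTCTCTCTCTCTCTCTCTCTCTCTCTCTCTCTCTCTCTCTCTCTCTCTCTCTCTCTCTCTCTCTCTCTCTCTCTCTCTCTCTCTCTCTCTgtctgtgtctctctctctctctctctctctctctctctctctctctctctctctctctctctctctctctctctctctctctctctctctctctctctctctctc
Gm24407: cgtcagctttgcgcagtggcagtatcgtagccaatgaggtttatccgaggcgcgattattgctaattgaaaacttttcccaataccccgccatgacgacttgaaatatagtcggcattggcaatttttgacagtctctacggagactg

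The highest-scoring member lay at chr17:20164053-20164194, 17954 bp from Fpr-rs6, a formyl peptide receptor gene, and was a CA repeat from end to end with few interruptions. It scored 5132 with 491K cells and 2365 with 100K cells. The score is that of the deposited peak lists, 10 times the −log10 of the q-value for enrichment over the control. The member in an intron of Wwox, a WW-domain oxidoreductase gene, lay at chr8:114457196-114457349 and scored 4565 and 1913 with 491K and 100K cells. The member over the start of the long non-coding RNA gene Gm36235 lay at chr12:16015483-16015628 and scored 4332 and 2035. All of its 146 bp alternated, with 107 bp of uninterrupted CACG units and 26 CpG sites in the run. These 3 members also held the 3 highest 100K scores.

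The next members by 491K score were also repeats. An intron of Erg, an ETS transcription factor gene, held a peak at chr16:95503905-95504094 with a score of 4065 (1693 with 100K cells), in which CA and TG runs were joined by CT runs. The peak at chr11:56972036-56972157, 39290 bp from the AMPA receptor subunit gene Gria1, scored 3825 (1812 with 100K cells) and alternated over 121 of 122 bp. A peak 9689 bp from Xylt1, which encodes a xylosyltransferase of proteoglycan synthesis, scored 3803 (1027 with 100K cells). The member at chr10:75404763-75404888, within Gucd1 and 2085 bp from a start site of Upb1, scored 2909 (932 with 100K cells). The Rbpj intron, in the gene of the DNA-binding effector of Notch signalling, held the highest-scoring member without an alternating tract, chr5:53651805-53651947, at 2602 (1080 with 100K cells). Its sequence mixed GTGA and GT units, and its longest alternating run was 15 bp. The last of the 10 highest scores were 2542 in an intron of Lrp1b (chr2:42108314-42108448, all 135 bp alternating with TG and TA steps) and 2372 in an intron of the long non-coding RNA gene 9230109A22Rik.

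The 5 lowest 491K scores among the members ran from 48 to 70. The member at chr6:11689522-11689706, far from any protein-coding gene at 210678 bp from Ndufa4, scored 70 with 491K cells and 60 with 100K cells, and alternated over 137 of its 185 bp. Another low member, 40166 bp from Crygf, scored 66 and 31 and carried a 45-bp CACG run. The lowest, 347135 bp from Tdrd3, scored 48 and 50. A second member scored 70, the Zbtb43 exon described further on, and it held no alternating tract. The other low-scoring members held one, as did 9 of the 10 highest-scoring members.

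Because recurrence and the absence of an IgG-controlled peak chose the members, their scores are described without a test. The 491K score had a median of 393 (quartiles 235 and 701.75, n = 274), with extremes of 48 and 5132. The median was 116 for the 891 input-only peaks seen with 491K cells alone and 925.5 for the 330 recurring peaks that had an IgG-controlled peak (IgG-supported peaks). Scores of at least 1000 were found for 43 of 274 members (15.7%), 6 of the 891 (0.673%) and 156 of the 330 (47.3%). Members were narrow, with a median width of 161.5 bp (quartiles 143 and 196.25), compared with 143 bp for the 891 and 406 bp for the 330.

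Recurrence with 100K cells went with the 491K score. Of all 2043 input-controlled 491K peaks, 29.6% recurred with 100K cells and 57% were input-only. Among the 1165 input-only peaks the 274 members were 23.5%, and among the 878 IgG-supported peaks 37.6% recurred. Of input-only peaks scoring below 100, 11 of 374 recurred (2.94%, 95% Wilson interval 1.65 to 5.19). Between 200 and 400, 92 of 271 did (33.9%, 28.6 to 39.8), and at 800 and above 58 of 70 did (82.9%, 72.4 to 89.9). In the band from 200 to 400 the IgG-supported peaks recurred in 32 of 179 cases (17.9%, 12.96 to 24.1), and at 800 and above in 185 of 198 (93.4%, 89.1 to 96.1). From 400 to 800, 77 of 149 input-only peaks recurred (51.7%, 43.7 to 59.6) and 99 of 153 IgG-supported peaks did (64.7%, 56.9 to 71.8). The intervals cover counting error only, and peaks that share a band still differ in score and width. Recurrence and IgG support are what chose the members, so these shares are a description without a test.

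**Figure D1:**
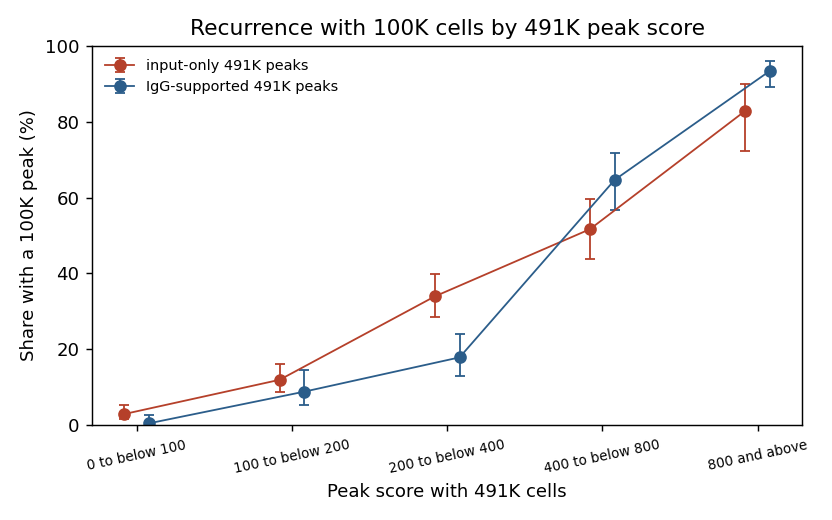
Share of 491K input-controlled peaks (y axis, %) that overlapped a 100K peak, by bands of the 491K peak score (x axis), for the 1165 input-only peaks (red) and the 878 IgG-supported peaks (blue). Points are shares and bars 95% Wilson intervals; the input-only share went from 2.94% below 100 to 82.9% at 800 and above.

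Each of the 274 members overlapped exactly 1 peak of the 100K list, and these 274 peaks were all different. Of the 630 input-controlled 100K peaks, 338 overlapped an IgG-supported 491K peak and no member, and 18 overlapped no 491K peak. The 100K peak was narrower in 253 of 274 pairs and lay wholly inside the 491K peak in 210. The centres of the paired peaks were a median of 6.5 bp apart (quartiles 2 and 16), and within 25 bp of each other in 238 pairs. The 100K score was lower than the 491K score at 272 members, with a median of 140 (quartiles 71 and 264.25), and the 491K score was a median of 2.84 times the 100K score.

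The 2 exceptions were the member near Tdrd3 (48 and 50) and a purine-run member 40050 bp from Slc5a7 (205 and 273). Scores are coarse at the low end: 18 members shared the 100K score of 60, and the 274 members took 98 different 100K scores. The lowest 100K score of a member was 13, the lowest value in any of the lists, in a peak near Emc2.

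**Figure D2:**
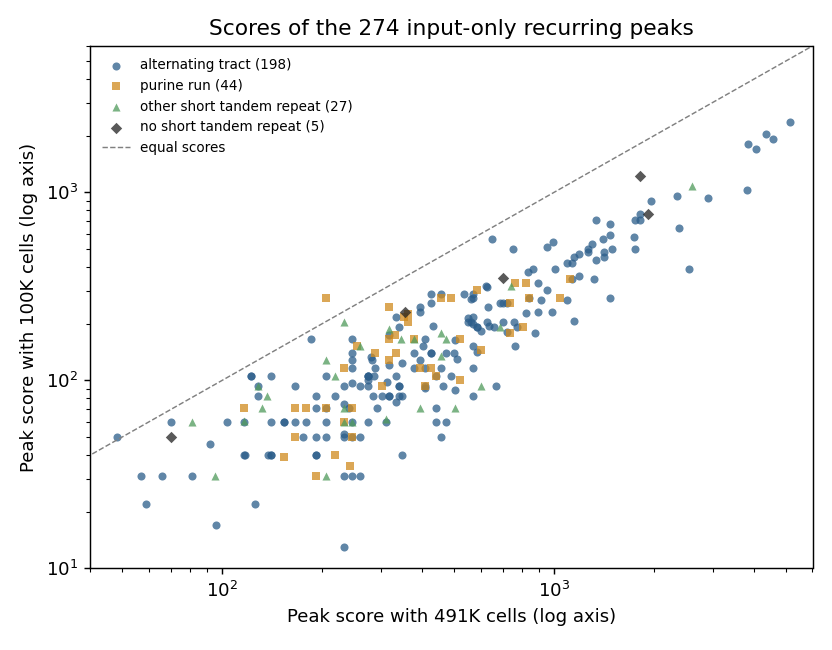
Peak score with 491K cells (x axis, log) against peak score with 100K cells (y axis, log) for the 274 members, coloured by sequence class, with the number in each class in the key. The dashed line marks equal scores, and 272 of 274 points lie below it.

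The members just inside the overlap criterion were a peak in Zbtb43, which shared 19 bp with its 100K peak, a peak 429 bp from Ppa2 (78 bp shared) and a peak in an intron of Kiz (99 bp shared). Just outside it were input-only peaks 139 bp from a 100K peak near Kif6 (score 702), 278 bp from one in Reln (148) and 306 bp from one in Zbtb43 (59). Distance to an IgG-controlled peak is a consequence of the selection and does not show how close a region came to being called against IgG. The nearest IgG-controlled 491K peak was a median of 988302 bp away, and 1 member, in Myh1, had one within 10 kb, at 4933 bp. The next nearest were 13543 bp away, from a peak 444942 bp from Adra2a, and 14666 bp away, from a peak in an intron of Aebp2, which encodes a cofactor of Polycomb repressive complex 2. No member overlapped any of the 18 IgG-controlled 100K peaks (0 of 274). Such an overlap was found for 18 of all 2043 input-controlled 491K peaks (0.881%). It was found for 0 of the 891 input-only peaks without a 100K peak and 17 of the 330 IgG-supported recurring peaks. Members were selected for the absence of an IgG-controlled 491K peak, so this count is a description and no separate result.

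The sequence under the peaks was not used to choose them. An alternating tract, meaning 20 bp or more of purine and pyrimidine by turns, was present in 198 of 274 members (72.3%, 95% Wilson interval 66.7 to 77.2). Of 16443746 windows of 161 bp tiled over the assembled chromosomes, 3.08% held such a tract. Among IgG-supported recurring peaks 313 of 330 had one (94.8%, 91.9 to 96.8), a difference of −22.6 percentage points for the members (two-sided Fisher's exact test, Benjamini-Hochberg adjusted p = 7.75e-14 over 12 tests). Among input-only peaks seen with 491K cells alone, 589 of 891 did (66.1%, 62.9 to 69.1), and this difference of 6.16 points did not pass the test (Fisher's exact test, adjusted p = 0.156). With tracts of at least 30 bp the shares were 65.3% and 56.7%, and the difference passed (Fisher's exact test, adjusted p = 0.0277). Within 200 bp at each peak centre, which removes the difference in width, the shares for 20-bp tracts were 72.6% and 69.4%. That difference of 3.27 points did not pass (Fisher's exact test, adjusted p = 0.56).

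CA was the leading unit. A CA tract, at least 20 bp of C and A or of T and G in turn, was found in 197 of 274 members (71.9%), in 1.59% of the genome windows, in 551 of 891 input-only peaks without a 100K peak (61.8%) and in 312 of 330 IgG-supported recurring peaks (94.5%). Both differences passed the test, at 10.1 points (Fisher's exact test, adjusted p = 0.00735) and −22.6 points (Fisher's exact test, adjusted p = 7.75e-14). Peak score differed between the groups (medians of 393, 116 and 925.5), and no tract share was compared at like score. Peak width differed as well, and a wider peak has more room for a tract. Within 200 bp at each peak centre the CA shares were 71.5%, 64.6% and 80%, and neither difference passed (Fisher's exact test, adjusted p = 0.122 and 0.0662). The window spans only part of many IgG-supported recurring peaks, whose median width was 406 bp. Where these peaks had a tract, its centre lay a median of 81 bp from the peak centre, against 37.25 bp in members. The window can thus miss tracts that the whole peaks hold. The alternating tract kept its lower share in members than in IgG-supported recurring peaks in that window, at 72.6% against 87.9% (Fisher's exact test, adjusted p = 2.82e-05).

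CACG tracts, at least 8 bp of the 4-bp unit CACG in any phase or on either strand, were found in 21 of 274 members (7.66%, 5.07 to 11.4) and 0.274% of genome windows. The share was 5.16% in the 891 (46 peaks; Fisher's exact test, adjusted p = 0.257) and 17.9% in the 330 (59 peaks; Fisher's exact test, adjusted p = 0.00104). Longer CACG tracts had another order. Runs of at least 16 bp occurred in 17 of 274 members (6.2%), 13 of 891 (1.46%) and 17 of 330 (5.15%), so that the members exceeded the 491K-only peaks (Fisher's exact test, adjusted p = 0.000229) and no longer lay below the IgG-supported recurring peaks (Fisher's exact test, adjusted p = 0.891). Within 200 bp of the centre, the 8-bp tracts were at 7.66% in members and 14.5% in IgG-supported recurring peaks (Fisher's exact test, adjusted p = 0.059).

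**Figure D3:**
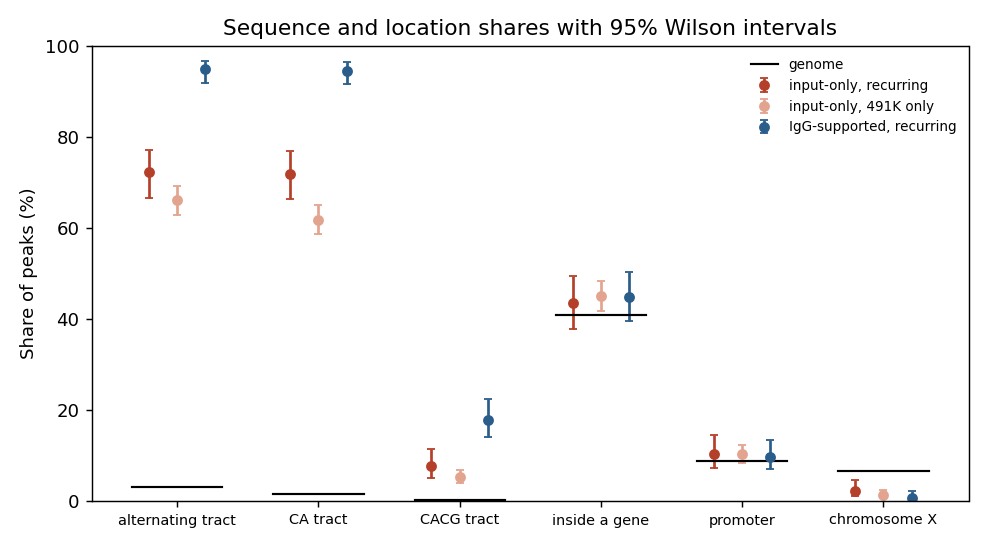
Share of peaks (y axis, %) with each tract or in each location (x axis) for the 274 members (red), the 891 input-only peaks seen with 491K cells alone (light red) and the 330 IgG-supported recurring peaks (blue), with 95% Wilson intervals; black lines give the genome's share of 161-bp windows (tracts), of bases (gene, promoter) or of length (chromosome X). Inside a gene means exon or intron outside promoters. The members lie between the other groups for the alternating and CA tracts and beside them for gene and promoter location.

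The longest CACG runs were 109 bp in an intron of Apbb2 (chr5:66466337-66466506, scores 568 and 198), whose protein binds the amyloid precursor protein, and 107 bp at the start of Gm36235. The Apbb2 region alternated over all of its 170 bp, with 35 CpG sites in the run and a GC content of 70.6%. Runs of 63 bp followed in an intron of the long non-coding RNA gene Gm10732 (912 and 268) and 147473 bp from Ferd3l (313 and 98), and a run of 55 bp in an intron of Osbpl10 (166 and 93). These 5 members differed widely in score, from 166 to 4332. CpG sites were uncommon in the members as a whole: 67 of 274 held any CpG (24.5%), beside 263 of 891 input-only peaks without a 100K peak (29.5%) and 191 of 330 IgG-supported recurring peaks (57.9%), which were also wider. The longest alternating run held a CpG in 43 members and at least 5 in 24, whereas in 97 members it was made of CA or TG steps alone.

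The longest alternating runs were 368 bp in a 396-bp peak at chr14:99464714-99465109, 149876 bp from Klf5 (scores 984 and 231), and 289 bp filling a peak 106813 bp from Dmrt2 (318 and 82). A 259-bp run lay in Zfyve26 (393 and 231), a 251-bp run in Osbpl10 and a 221-bp run in Zbtb46 (471 and 140), which encodes another BTB zinc finger protein. These were among 54 members with a run of at least 100 bp (19.7%). Among the 198 members with an alternating tract, the longest run had a median of 53 bp (quartiles 39 and 111) and covered a median of 35.5% of the peak. Of the members, 260 of 274 (94.9%) were soft-masked as repeats in the assembly over their whole width, beside 762 of 891 input-only peaks without a 100K peak (85.5%), 159 of 330 IgG-supported recurring peaks (48.2%) and 13.5% of genome windows. The 330 were much wider, and their median soft-masked share was 98.8% of the peak, so whole-width masking is not comparable across these widths. Over whole peaks, a median of 88.5% of neighbouring bases in members alternated between purine and pyrimidine, and a median of 85.2% were CA, AC, TG or GT steps.

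Members without an alternating tract fell into a small number of kinds. These classes and their cut-offs were chosen after the sequences were seen, so they are described without a test. A run of at least 30 bp of purines alone or pyrimidines alone, such as a GA or CT repeat, marked 44 of the 76 members without a tract (16.1% of all members). Another 27 members (9.85%) were other short tandem repeats, and 5 (1.82%) were no short tandem repeat. The purine-run class made up 137 of 891 input-only peaks seen with 491K cells alone (15.4%), 8 of 330 IgG-supported recurring peaks (2.42%) and 8 of 548 IgG-supported peaks without a 100K peak (1.46%). The class leaves out peaks with an alternating tract. Counted in all peaks, a run of this length was held by 54 of 274 members (19.7%), 160 of the 891 (18%), 21 of the 330 (6.36%), 23 of the 548 (4.2%) and 2.16% of genome windows. The class with no short tandem repeat took 95 of the 891 (10.7%) and 2 of the 330 (0.606%).

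**Figure D4:**
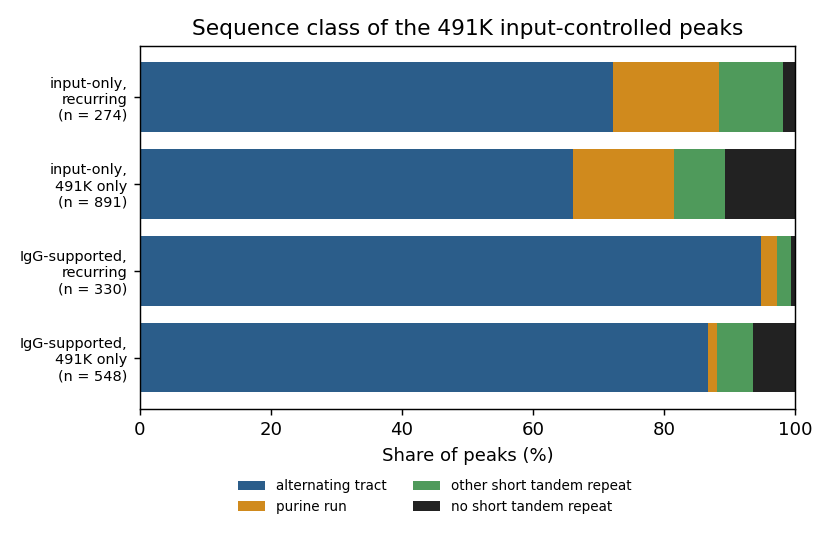
Share of peaks (x axis, %) in each of 4 sequence classes for the 4 groups of input-controlled 491K peaks (y axis, with n). Purine runs (orange) took 16.1% and 15.4% in the input-only groups and 2.42% and 1.46% in the IgG-supported groups.

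Of the purine-run members, 26 of 44 were 1 such run from end to end. The highest-scoring were on the X chromosome, a GA repeat at chrX:127700016-127700153, 21097 bp from Cldn34c4, with scores of 1113 and 345, and a CT repeat at chrX:150661463-150661669, 3983 bp from Tro, the trophinin gene, with scores of 1039 and 273. A GA and GGGA repeat of 254 bp on chromosome 3, 2355 bp from the start of the ribosomal RNA gene copy Gm25621, scored 841 and 273. Purine-run members had a median 491K score of 342.5 and a median 100K score of 142.5, beside 426 and 140 for members with an alternating tract. Some members held both kinds of sequence. The Erg intron and the Aebp2 intron (948 and 513), where TG and AG runs took turns, were examples.

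The tracts sat at the peaks and not around them. In windows of the peak's own width moved 1000 bp to either side, 13 of 274 members (4.74%) had an alternating tract on each side, and 4 and 7 had a purine or pyrimidine run of at least 30 bp. Positions 50 bp to the left and right of the peak centre lay inside an alternating run in 49.6% and 57.7% of members, and positions 250 bp away in 2.55% and 1.09%. Among IgG-supported peaks, which were wider, the runs reached further from the centre.

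**Figure D5:**
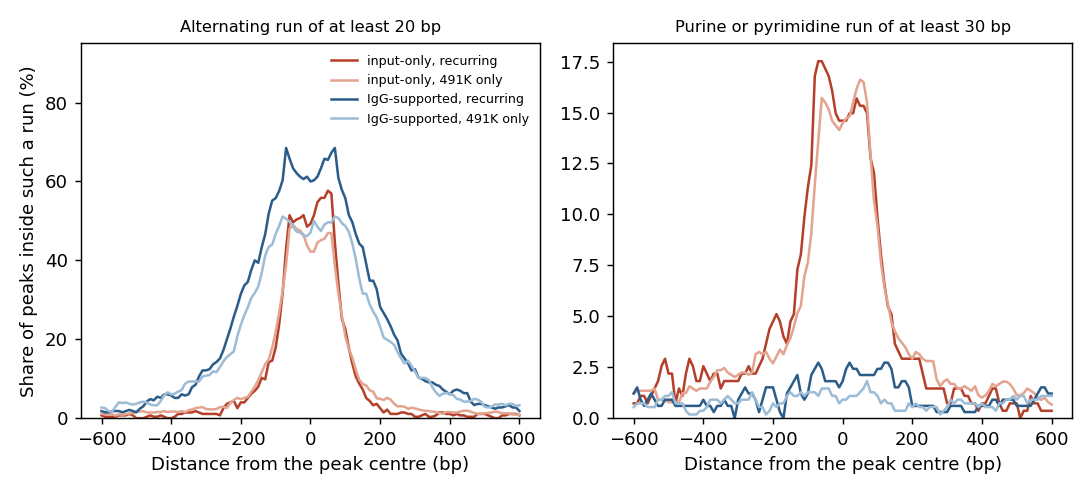
Share of peaks (y axis, %) that lie inside an alternating run of at least 20 bp (left) or a purine or pyrimidine run of at least 30 bp (right) at each distance from the peak centre (x axis, bp), for the 4 groups of input-controlled 491K peaks. In members (red) the alternating runs fall from 57.7% at 50 bp right of the centre to 1.09% at 250 bp.

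Members were spread over introns, promoters and intergenic sequence in shares near those of the genome. In the GENCODE M21 annotation the centre lay between genes in 127 members, in an intron in 114, in a promoter (up to 3000 bp upstream of a transcription start) in 28 and in an exon in 5. Each base had 1 class, with promoter taken before exon and exon before intron. Promoter members that lie inside a gene were therefore not counted in exon or intron. Exons outside promoters held 1.82% of members, beside 3.86% of bases and 3.57% of all 2043 input-controlled 491K peaks. They held 6.06% of the 891 and 0.606% of the 330. Outside promoters, exon and intron together held 119 of 274 (43.4%), beside 40.9% of the bases of the genome classed in the same way. The share was 45% of the 891 and 44.8% of the 330 (Fisher's exact test, adjusted p = 0.891 for both). Counted whether or not a promoter also covered the centre, 120 members lay inside a protein-coding gene. Promoters held 10.2%, beside 8.82% of bases, 10.2% of the 891 and 9.7% of the 330 (Fisher's exact test, adjusted p = 1 and 0.973). On the X chromosome, 6.49% of the autosomal and X length, there were 6 members (2.19%, 1.01 to 4.69), 12 of the 891 (1.35%) and 2 of the 330 (0.606%), and neither difference passed (Fisher's exact test, adjusted p = 0.597 and 0.257). Members occurred on each autosome and on X.

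Promoter members were repeats near start sites. After the Gm36235 and Gucd1 members, the highest was at chr4:128164332-128164469 in Csmd2, which encodes a synaptic membrane protein, 142 bp from a start of its antisense gene Csmd2os, with scores of 1132 and 345. The ribosomal RNA copy described above and a TG repeat in Fyco1, 610 bp from a start of an overlapping RNA gene (628 and 315), completed the 5 highest.

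Of the 5 members with their centre in an exon outside promoters, 4 held no alternating tract and belonged to the 5 members that were no short tandem repeat. The Gm24407 member, chr5:115490250-115490397, scored 1818 with 491K cells and 1224 with 100K cells. It covered the whole of a small nuclear RNA gene annotated at 115490254 to 115490394 on the plus strand. Small nuclear RNAs, the RNA parts of the spliceosome, are encoded by multicopy gene families. Alignments had been kept at a mapping quality of at least 30, and whether fragments of other copies were placed here was not tested. The fifth member of that class lay between genes, 180280 bp from Fer, and scored 1911 and 763 over 415 bp. The exon of Enah, an actin regulator, differed in that it held a 63-bp CA run (424 and 140).

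The other 3 exon members lay in coding sequence. In Myh1, a fast skeletal muscle myosin heavy chain gene, the 491K peak at chr11:67207422-67207580 (701) and the 100K peak at chr11:67207422-67207546 (348) were contained in the coding exon from 67207420 to 67207590. In Myh4, another fast myosin gene, the 491K peak at chr11:67254678-67254860 (356) and the 100K peak (231) were contained in the coding exon from 67254677 to 67254873. Other 491K peaks over coding exons of Myh1 numbered 4, scoring 128 to 471 without a 100K peak, and the one at chr11:67202202-67202584 (318) overlapped an IgG-controlled peak. Only the peak scoring 128 was contained in its coding exon. The others had 152 of 383, 115 of 311 and 177 of 372 bp in theirs. Myh4 had 1 further 491K peak without a 100K peak, contained in a coding exon at chr11:67248509-67248676 (408). The third lay in Zbtb43 itself, the gene of the precipitated protein. There the 491K peak ran over chr2:33453699-33453954 with a score of 70 and the 100K peak over chr2:33453936-33454138 with a score of 50.

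Zbtb43 is read from the minus strand, its stop codon lies at 33453697 to 33453699, and the coding part of its last exon spans 33453700 to 33455123. The 491K peak thus had 255 of its 256 bp in coding sequence and its other base in the stop codon. The 100K peak lay wholly in that coding part, as did a further 491K peak at chr2:33454445-33454645 (score 59), which had no 100K peak. No IgG-controlled list had a peak in Zbtb43. The study also cloned Zbtb43 cDNA, and whether these fragments came from chromatin or from such DNA was not tested. A centre in coding sequence was found in 3 of 274 members (1.09%), 69 of 891 input-only peaks without a 100K peak (7.74%) and 0 of 330 IgG-supported recurring peaks, which allows a share of up to 0.909%. Over all 2043 input-controlled 491K peaks there were 78 such peaks (3.82%). Coding sequence was counted here also where a promoter covered it. The exon class above leaves promoters out, so it can hold fewer peaks.

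Gene lists covering the study's subject were looked up within 10 kb of each member. None of the 274 members lay at any of 35 germ cell genes, 27 genes of DNA methylation, 14 genes of Z-DNA binding and DNA topology or 30 genes of meiosis and break repair, each of which allows a share of up to 1.09%. Over all 2043 input-controlled 491K peaks these lists had 6 (0.294%), 2 (0.0979%), 1 (0.0489%) and 0 peaks. At shares this low, 0 of 274 does not set the members apart from the whole list. Of 57 genes of synapses and neuronal adhesion, 6 had a member (2.19% of members), beside 40 peaks over the whole list (1.96%). They were Robo1, an axon guidance receptor gene (chr16:72352834-72352960, 2351 and 956), Lrp1b, Csmd2, Opcml (749 and 498), Nrg3, a neuregulin gene (551 and 204), and Cntnap2 (439 and 60), in each case at a repeat. Of 17 loci that the study itself examined, 2 had a member (0.73%), beside 22 peaks in all (1.08%). These were Plekhh2, with a TG repeat in an intron at chr17:84582535-84582700 (1190 and 360), and Cngb3, a cone photoreceptor channel gene, with a TG repeat 1483 bp from its start at chr4:19279273-19279461 (348 and 82). The study chose these loci itself, so they are no independent sample of genes. Neither of these members had an IgG-controlled 491K peak within 10 kb. A member at such a gene need not be the region that the study displayed there, and this was not checked.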

How the data were processed

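ZBTB43 ChIP–seq peaks of 15.5 dpc prospermatogonia were analysed from 4 peak lists. Per the methods, the authors trimmed reads (Trim Galore 0.6.0), aligned them to mm10 (bwa mem 0.7.17), marked duplicates, filtered out low-quality alignments, called peaks in each library against its control with MACS2 2.2.7.1 (q below 0.05, keeping 1 fragment per position) and removed blacklisted regions. The study counts the 491K and 100K preparations as biological duplicates; their peaks were called apart and not pooled. The deposited value is a score, 10 times the −log10 q-value cut to a whole number (13 or more). No read counts were used here, so depth per library is unknown. Alignments with a mapping quality below 30 had been removed, which bears on repeats, and the effect on the members was not tested.

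Members were found by interval overlap of at least 1 bp. Sequence came from GRCm38.p6 and genes from GENCODE M21. Shares were compared by two-sided Fisher's exact tests (SciPy 1.17.1) with Benjamini-Hochberg adjustment over 12 tests, and intervals are 95% Wilson intervals. The limits given for counts of 0 are not Wilson limits but 3 divided by the number of regions. Tract finding and overlaps were tested on simulated data. Loci were named by rule: the 10 highest and 5 lowest 491K scores, the 5 highest 100K scores, the 5 longest alternating and CACG runs, the 5 highest-scoring without a tract, in exons and in promoters, up to 5 per gene list, and those nearest to the selection limits. Named outside it, after values were seen, were Slc5a7, Emc2 and Cntnap2. The members, gene lists and tests were chosen with earlier results of these data known. Alternatives were a q-value of 0.01, 50% reciprocal overlap, IgG support within 1000 bp, merging of peaks, a 200-bp window, longer tracts and another promoter definition.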

Additional observations from a re-analysis of the deposited data

How the results depend on the processing

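The number of members was 274 with a q-value threshold of 0.01 (272 shared with those reported), 250 with a reciprocal overlap of 50%, 274 with IgG support sought within 1000 bp and 274 after merging peaks within 1000 bp. Of 12 tests, 4 passed the threshold, and of their 52 alternatives 43 kept direction and side. In the 200-bp window the CA difference from input-only peaks seen with 491K cells alone became 6.89 points, that from IgG-supported recurring peaks −8.47 and the CACG difference from the latter −6.88, none of which passed. With longer tracts the differences from 491K-only peaks became 8.65 points (alternating) and 4.75 (CACG), which passed, and the CACG difference from IgG-supported recurring peaks turned to 1.05. Among differences that never passed, the promoter difference from 491K-only peaks turned to −0.0655 points with a q-value of 0.01 and −1.23 with promoters of 1000 bp either side, and the gene difference from IgG-supported recurring peaks to 2.84 with a reciprocal overlap of 50%. The cause of these changes was not tested. No paired analysis was possible because there was 1 library in each of the 6 groups. Peak lists without read counts cannot show how close an unlisted region came to the threshold, and with 1 library per group no spread between replicates can be given.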
